A study of Rattus norvegicus with 12 samples.

Results

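The enzymes of bile acid (BA) synthesis were followed in rat liver after 2/3 partial hepatectomy (PH), using the 9 genes CYP7A1, CYP8B1, CYP27A1, CYP7B1, HSD3B7, AKR1D1, BAAT, AMACR and SLC27A5. The members were chosen by name for their place in the pathway, and all 9 were found among the 14692 genes of the deposited RPKM table (a read count scaled to transcript length and to the reads of the library). All 9 averaged 1 RPKM or more over the columns, as did 8459 genes in all. Livers came from adult male Sprague Dawley rats with a biliary fistula or a sham fistula made 24 h before PH. Every rat, Control included, carried a duodenal catheter through which saline was infused, and livers were taken 0, 4, 12 or 24 h after PH. Control rats had the sham fistula, and both other groups, whose columns are titled BF and BA, had a fistula that drained bile. Sodium taurocholate was infused into the duodenum of 1 of these 2 fistula groups from before PH.

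Which fistula group received taurocholate is given in opposite ways. In the study BF stands for the fistula alone, whereas the sample descriptions attach the infusion to the columns titled BF and its absence to those titled BA. The groups are therefore named here by their column titles, BF and BA, and no value below was used to decide between the readings. There is 1 column per group and time, 12 in all, and in each the authors averaged a run on a single rat with a run on the combined RNA of 3 rats. No spread between rats can be computed from 1 averaged column, so no difference at a single time has an error, a replicate check or a p-value, and the groups were tested only over the 4 times together. Ratios are given as log2 after adding 1 RPKM, and a log2 ratio of 1 in size, a 2-fold difference, was the size counted. The number of reads per column is unknown.

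Hepatocytes make BA from cholesterol by a neutral pathway, which starts with hydroxylation of the sterol ring by CYP7A1, and by an acidic pathway, which starts with oxidation of the side chain by CYP27A1 and continues with CYP7B1. CYP8B1 adds the hydroxyl group that turns the product into cholic acid. HSD3B7 and AKR1D1 finish the ring, AMACR acts in shortening the side chain, and SLC27A5 and BAAT activate BA and join them to taurine or glycine. In the intact animal, BA returning to the liver repress CYP7A1 and CYP8B1.

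The columns were first compared as a whole. Summed RPKM lay between 727435 and 785092 in 11 columns and at 982826 in BA at 4 h, where albumin alone held 30.9% of the sum against 5.6% to 13.4% elsewhere. The median gene of BA at 4 h lay 0.34 below its mean over all columns on the log2 scale, the lowest of the 12. The highest was 0.27 above, in Control at 24 h. The part of the albumin share in the low median was not tested. Of 8 hepatocyte markers, 7 were found and summed to between 80967 and 348775 RPKM, so the markers of liver were abundant in every column. Pancreatic acinar markers (10 of 11 found) summed to 142.6 RPKM in BF at 12 h and to between 5.25 and 23.4 RPKM in the other 11 columns, where most of the sum was CELA1. In whole liver, fewer cells of a type and less RNA per cell cannot be told apart.

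Promoter sequences were read because several members moved together over the time course and CYP8B1 stood apart from them. RefSeq gives the bases before the transcription start in rat (GRCr8 build) for 6 of the 9 members, and CYP7A1, CYP7B1 and AKR1D1 had no entry. The 250 bases before each start were searched on both strands for CAAGGTC, the half-site bound by the nuclear receptor LRH-1 (NR5A2), for CAAAGTCCA, a site of HNF4, and for TTATGTAA, a D-box bound by the clock factor DBP. All of these factors are known activators of BA synthesis genes. The half-site was present in 3 of the 6 members and in 3.61% of all 33469 promoters, the HNF4 site in 1 member and 0.338% of promoters, and the D-box in 0 members and 0.828% of promoters. A match of letters is a description and not evidence of binding. The 4 promoters with a match are printed 5′ to 3′ on the strand of the gene with the match in capitals.
CYP8B1, chr8:130457593-130457842, minus strand, half-site at -89 to -83 from the start: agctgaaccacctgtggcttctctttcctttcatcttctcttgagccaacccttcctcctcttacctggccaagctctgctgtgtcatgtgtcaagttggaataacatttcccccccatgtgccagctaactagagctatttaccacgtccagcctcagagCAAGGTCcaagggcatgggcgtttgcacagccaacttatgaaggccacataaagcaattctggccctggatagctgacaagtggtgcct
CYP27A1, chr9:83713282-83713531, plus strand, half-site on the opposite strand at -235 to -229: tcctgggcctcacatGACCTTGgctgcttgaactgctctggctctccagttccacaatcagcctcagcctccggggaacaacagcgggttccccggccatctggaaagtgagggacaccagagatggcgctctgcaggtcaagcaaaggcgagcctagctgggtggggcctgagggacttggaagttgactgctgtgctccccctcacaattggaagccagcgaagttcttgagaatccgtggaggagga
AMACR, chr2:61673085-61673334, plus strand, half-site at -242 to -236: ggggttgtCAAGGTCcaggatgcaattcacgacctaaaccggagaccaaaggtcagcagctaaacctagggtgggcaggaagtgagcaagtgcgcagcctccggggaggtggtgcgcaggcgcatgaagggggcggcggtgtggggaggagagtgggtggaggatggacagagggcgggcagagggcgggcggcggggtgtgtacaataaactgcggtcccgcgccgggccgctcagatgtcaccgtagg
BAAT, chr5:68656138-68656387, minus strand, HNF4 site at -90 to -82: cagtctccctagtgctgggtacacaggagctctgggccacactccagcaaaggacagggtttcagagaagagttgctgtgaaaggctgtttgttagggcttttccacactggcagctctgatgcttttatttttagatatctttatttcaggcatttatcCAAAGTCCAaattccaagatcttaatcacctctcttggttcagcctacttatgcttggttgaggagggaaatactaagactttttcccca
The half-site lay nearer to the start in CYP8B1 than in CYP27A1 and AMACR, and whether its place bears on their levels was not tested.

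Between 0 and 12 h after PH most enzymes of the pathway were lower in all groups. Of 27 ratios (9 members in 3 groups), 8 were at least 2-fold lower at 4 h, 19 at 12 h and 2 at 24 h, and 0 were at least 2-fold higher at any time, although CYP7B1 in BF at 12 h passed 2-fold higher when columns were rescaled without their 10 most abundant genes. Over all genes and groups, 8.42% of ratios were at least 2-fold lower and 4.58% higher at 4 h, 6.96% lower and 2.57% higher at 12 h, and 2.1% lower and 7.13% higher at 24 h. The median member at 12 h lay at a log2 ratio of -1.37 in Control, -1.59 in BA and -1.50 in BF, where the median of all genes lay at -0.16, -0.13 and -0.054. At 24 h the medians of the members were -0.48, -0.76 and -0.39 while those of all genes were 0.21, 0.15 and 0.28. With the median gene set equal in all columns, 6 ratios instead of 2 were at least 2-fold lower at 24 h. The 2.1% of all gene ratios was counted before this rescaling and is not the share to set beside the 6.

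**Figure D1:**
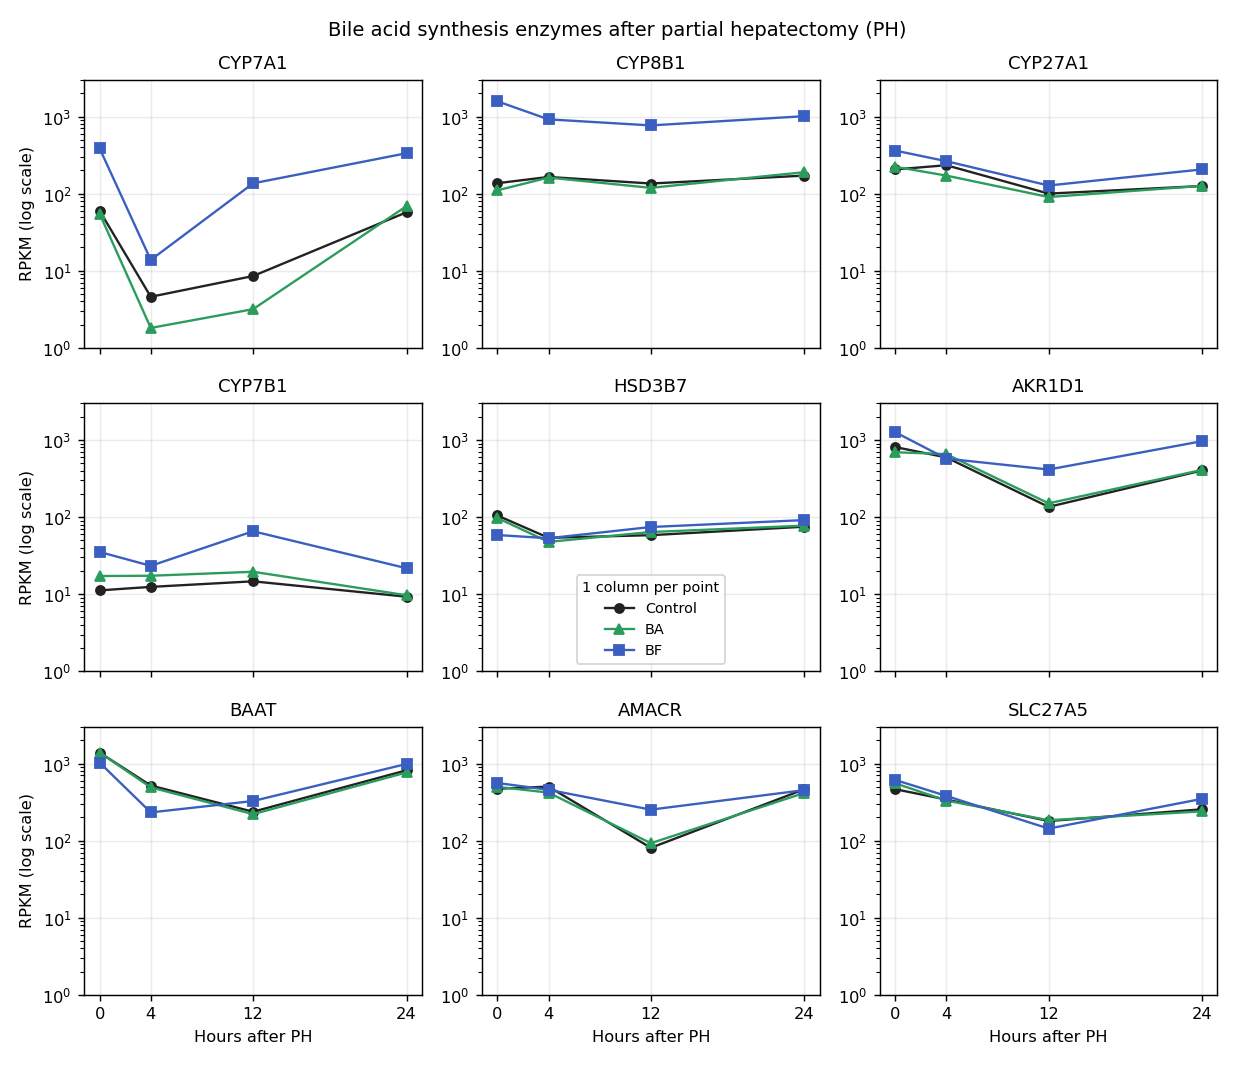
Level of each enzyme (RPKM, log axis) against hours after PH for Control, BA and BF, with 1 averaged column per point and no error bars. CYP7A1 is lowest at 4 h in the 3 groups, while AKR1D1, AMACR, CYP27A1 and SLC27A5 are lowest at 12 h, and CYP8B1 in BF lies above Control and BA throughout.

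Summed over the 9 members, Control was at 3649 RPKM at 0 h, 2423 at 4 h, 949 at 12 h and 2376 at 24 h. BA was at 3636, 2296, 943 and 2303 RPKM at the same times. In BF the sum was higher at each time, at 5883, 2914, 2305 and 4416 RPKM. CYP8B1 was the most abundant member in every BF column, whereas BAAT or AKR1D1 was in every Control and BA column.

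**Figure D2:**
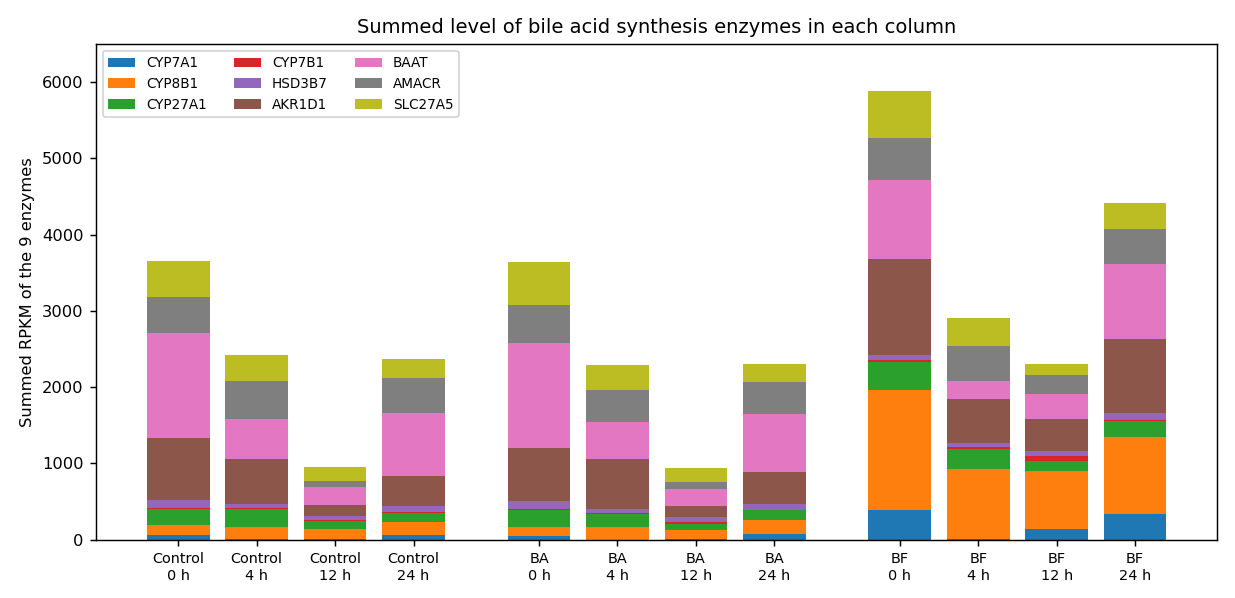
Stacked bars of the RPKM of the 9 enzymes in each of the 12 columns. The sum at 12 h is 949 RPKM in Control and 943 in BA but 2305 in BF, and the CYP8B1 layer is widest in BF.

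CYP7A1, the rate-limiting enzyme of the neutral pathway, had the widest range of the members, from 1.81 to 386.9 RPKM. In Control it was at 60.0 RPKM at 0 h, 4.59 at 4 h, 8.53 at 12 h and 57.3 at 24 h. In BA it was at 54.9, 1.81, 3.17 and 68.8 RPKM, and in BF at 386.9, 13.8, 135.9 and 334.4 RPKM at these times. All 3 groups were thus lowest at 4 h and near their 0 h level at 24 h. At 4 h the level was 7.65% of that at 0 h in Control, 3.3% in BA and 3.56% in BF. Among 8459 genes ordered by their ratio of 4 h to 0 h, CYP7A1 ranked 1 from the lowest in BF, 3 in Control and 4 in BA.

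CYP7A1 was higher in BF than in Control and BA at each time, 0 h included. At 12 h the groups also differed in their level relative to 0 h. CYP7A1 then stood at 35.1% of its 0 h level in BF, at 14.2% in Control and at 5.77% in BA. The BF column at 12 h is the one that held the acinar markers, whose part in this value was not tested. BF exceeded Control 6.45-fold at 0 h, 3.0-fold at 4 h, 15.9-fold at 12 h and 5.84-fold at 24 h. BA was at 0.92 and 1.2 times the Control level at 0 and 24 h but at 0.39 and 0.37 times at 4 and 12 h, where both values are below 10 RPKM. Adding 5 instead of 1 RPKM changed the log2 ratio of BA to Control at 12 h from -1.19 to -0.73.

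CYP8B1, the sterol 12-alpha-hydroxylase, did not share the low point of CYP7A1. In Control it was at 136.4 RPKM at 0 h, 164.5 at 4 h, 135.1 at 12 h and 171.2 at 24 h, and in BA at 110.2, 161.5, 118.8 and 189.7 RPKM. The highest of these was 1.27 times the lowest in Control and 1.72 times in BA, against 13.1 times in Control for CYP7A1. In BF it was at 1576, 918.5, 766.6 and 1010 RPKM, 2.06-fold lower at 12 h than at 0 h. The lowest BF value was thus above the 189.7 RPKM of BA at 24 h, the highest of the other groups. How many of all genes were separated in this way was not counted.

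The ratio of BF to Control for CYP8B1 was 11.6-fold at 0 h and 5.58-fold, 5.67-fold and 5.9-fold at 4, 12 and 24 h. At 24 h it was the gene with the highest ratio of BF to Control among 8459 genes, and CYP7A1 had rank 2. At 0 h CYP8B1 ranked 1 from the highest for BF against BA and 10 for BF against Control. Relative to CYP7A1, CYP8B1 was 2.27 times as abundant in Control at 0 h and 35.8 times at 4 h, and in BF 4.07 and 66.6 times.

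CYP27A1, the mitochondrial sterol 27-hydroxylase that opens the acidic pathway, was lowest at 12 h in each group. In Control it was at 205.8, 233.5, 99.99 and 125.5 RPKM at 0, 4, 12 and 24 h. It was at 222.9, 171.3, 90.3 and 126.0 RPKM in BA and at 361.8, 263.4, 127.4 and 206.2 RPKM in BF. BF was above Control at all 4 times, by 1.76-fold at 0 h, 1.13-fold at 4 h, 1.27-fold at 12 h and 1.64-fold at 24 h, below 2-fold each time. At 24 h the level had returned to 61.0% of that at 0 h in Control, 56.5% in BA and 57.0% in BF.

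CYP7B1, the oxysterol 7-alpha-hydroxylase of the acidic pathway, was the least abundant member on average, with a mean of 21.4 RPKM. It was at 11.2, 12.4, 14.7 and 9.28 RPKM in Control, at 17.2, 17.4, 19.6 and 9.69 RPKM in BA and at 35.3, 23.3, 65.5 and 21.7 RPKM in BF. Its highest value was at 12 h in all 3 groups, the time at which CYP27A1 was lowest. The lowest BF value, 21.7 RPKM at 24 h, was close to the highest of the other groups, 19.6 RPKM in BA at 12 h. BF exceeded Control 4.46-fold at 12 h and 1.88-fold to 3.15-fold at the other times. The BF column at 12 h is also the one with pancreatic acinar RNA, whose part in this value was not tested.

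Neutral and acidic pathway enzymes were compared within each column, since RPKM is a level per length, and the order depended on the pair of enzymes taken. These ratios compare RNA levels of single enzymes and do not measure the balance between the pathways. CYP27A1 exceeded CYP7A1 in every Control and BA column, where the ratio of CYP7A1 to CYP27A1 was 0.29, 0.02, 0.085 and 0.46 in Control and 0.25, 0.011, 0.035 and 0.55 in BA at 0, 4, 12 and 24 h. In BF this ratio was 1.07, 0.052, 1.07 and 1.62, below 1 at 4 h alone. Against CYP7B1 the order was another. CYP7A1 exceeded CYP7B1 5.35-fold in Control at 0 h and 6.17-fold at 24 h, but CYP7B1 was the higher at 4 h by 2.71-fold and at 12 h by 1.72-fold. The same crossing in BA was wider, with CYP7B1 9.59-fold higher at 4 h and 6.17-fold at 12 h. In BF, CYP7B1 was 1.69-fold higher at 4 h, and by 12 h CYP7A1 was again 2.07-fold higher. At 24 h the ratio of CYP7A1 to CYP7B1 was 7.1 in BA and 15.4 in BF, above that at 0 h in both.

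CYP8B1 and CYP27A1 gave no such crossing back. Their ratio was 0.66 and 0.7 in Control at 0 and 4 h and 1.35 and 1.36 at 12 and 24 h. In BA it was 0.49, 0.94, 1.32 and 1.5 over the 4 times. In BF CYP8B1 was the higher throughout, at a ratio of 4.36, 3.49, 6.02 and 4.9. The lowest ratio in BF thus exceeded the highest in Control and BA.

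**Figure D3:**
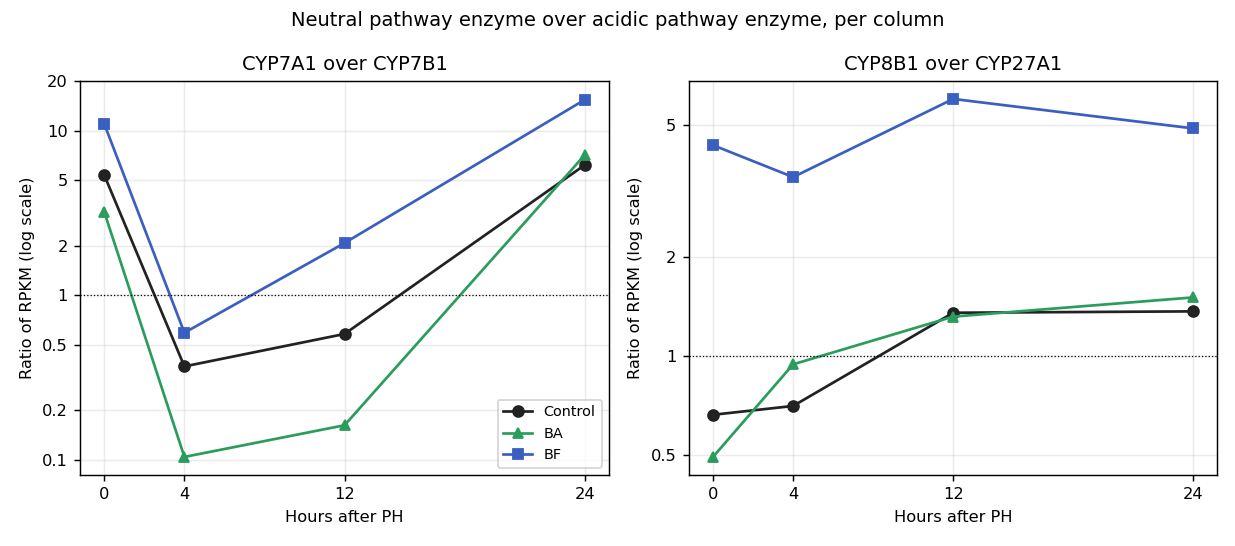
Ratio of RPKM (log axis) of a neutral to an acidic pathway enzyme against hours after PH, 1 point per averaged column, with a dotted line at 1. CYP7A1 over CYP7B1 lies below 1 at 4 h in the 3 groups and at 12 h in Control and BA, and CYP8B1 over CYP27A1 lies between 3.49 and 6.02 in BF and between 0.49 and 1.5 in Control and BA.

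Of the enzymes that complete the ring, HSD3B7, the C27 3-beta-hydroxysteroid dehydrogenase, varied least, between 47.7 and 104.9 RPKM. In Control it was at 104.9, 53.9, 58.3 and 75.1 RPKM at 0, 4, 12 and 24 h, and in BA at 97.3, 47.7, 64.1 and 77.5 RPKM. In BF it started at 58.6 RPKM, near the 4 h level of the other groups, and was at 53.2, 74.4 and 91.5 RPKM afterwards. The groups differed at 0 h, where BF was 1.79-fold below Control, more than at any later time.

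AKR1D1, the delta4-3-oxosteroid 5-beta-reductase, was at 811.0, 594.1, 135.7 and 402.9 RPKM in Control, at 694.4, 655.8, 151.0 and 410.1 RPKM in BA and at 1265, 573.5, 414.2 and 965.8 RPKM in BF. At 12 h this was 16.7% of the 0 h level in Control, 21.7% in BA and 32.7% in BF. At 4 h the 3 groups lay within 573.5 to 655.8 RPKM, whereas BF exceeded Control 3.05-fold at 12 h and 2.4-fold at 24 h.

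AMACR, the racemase that prepares the side chain for peroxisomal shortening, was at 470.5, 501.4, 80.6 and 463.6 RPKM in Control, at 498.0, 419.2, 92.5 and 415.2 RPKM in BA and at 559.2, 456.0, 252.0 and 451.6 RPKM in BF. The low level was thus seen at 12 h and not at 4 h, and at 24 h the level was 98.5% of that at 0 h in Control, 83.4% in BA and 80.8% in BF. At 12 h AMACR stood at 17.1% of its 0 h level in Control, 18.6% in BA and 45.1% in BF, and BF exceeded Control 3.13-fold. At 0, 4 and 24 h BF and Control were less than 1.2-fold apart.

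BAAT, which conjugates BA to taurine or glycine and was the most abundant member on average, was low already at 4 h. It was at 1385, 518.2, 236.8 and 816.8 RPKM in Control, at 1386, 490.5, 220.2 and 765.8 RPKM in BA and at 1028, 232.1, 326.2 and 986.9 RPKM in BF. The lowest value came at 12 h in Control and BA and at 4 h in BF. At 4 h BAAT was 2.23-fold lower in BF than in Control, the only such ratio among 36 in which BF was at least 2-fold the lower. SLC27A5, the bile acyl-CoA synthetase, was at 464.5, 340.6, 179.3 and 254.6 RPKM in Control, at 554.5, 330.8, 183.8 and 239.7 RPKM in BA and at 612.3, 379.9, 143.1 and 348.1 RPKM in BF. It was the 1 member that was lower in BF than in Control at 12 h, by 1.25-fold.

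**Figure D4:**
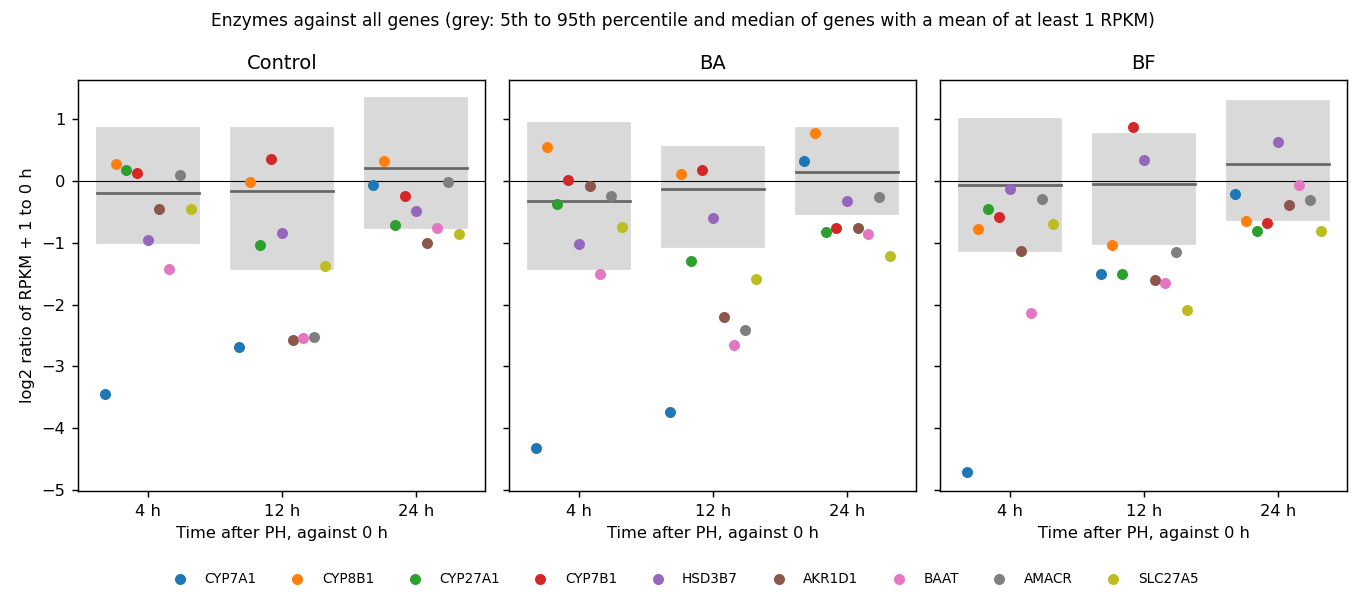
log2 ratio of RPKM + 1 at 4, 12 and 24 h to 0 h for each enzyme (coloured points) in Control, BA and BF, with the 5th to 95th percentile of 8459 genes as a grey box and their median as a line. At 12 h CYP7A1, AKR1D1, BAAT and AMACR lie below the box in each group, and at 4 h CYP7A1 lies far below it.

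Pearson's r over the 12 columns differed widely among pairs of members. It was 0.91, the highest for log2 RPKM + 1, between AKR1D1 and AMACR, 0.88 between AKR1D1 and CYP27A1 and 0.88 between CYP27A1 and SLC27A5, members that share the low point at 12 h. CYP7A1 and BAAT were also at least 2-fold lower at 12 h in the 3 groups. For BAAT, r was 0.72 with AKR1D1, 0.71 with AMACR, 0.69 with SLC27A5 and 0.49 with CYP27A1. For CYP7A1, r was 0.6 with BAAT, 0.55 with AKR1D1, 0.43 with AMACR, 0.36 with CYP27A1 and 0.28 with SLC27A5. Pairs with CYP8B1 had r of 0.62 with CYP7A1, 0.7 with CYP7B1 and -0.01 with BAAT. These describe 12 averaged columns that share groups and times and are not independent samples.

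Compared with Control at the same time, BF had 14 of 36 ratios (9 members at 4 times) at least 2-fold higher and 1 at least 2-fold lower, where 1.38% of all gene ratios were higher and 2.08% lower. The 14 were CYP7A1 and CYP8B1 at all 4 times, CYP7B1 at 0, 12 and 24 h, AKR1D1 at 12 and 24 h and AMACR at 12 h. Without the BF column at 12 h, which held the acinar markers, 9 of 27 ratios were at least 2-fold higher. In BA against Control 0 of 36 ratios were at least 2-fold higher and 1 was lower, CYP7A1 at 12 h, where 1.3% of all gene ratios were higher and 2.46% lower. BF against BA gave 13 of 36 at least 2-fold higher and 1 lower, with 1.21% and 1.36% of all gene ratios. The comparisons share columns, so the counts of BF against Control and BF against BA are not separate evidence.

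The groups were also compared over the whole course, with columns paired by time in a limma fit of group and time on all 12 columns and 8459 genes, where the 4 times serve as repeats and a group difference that varies with time counts as error. CYP8B1 was higher in BF than in Control by 2.76 ± 0.21 (SE, log2) at a limma adjusted p of 0.00124, CYP7B1 by 1.41 ± 0.19 at an adjusted p of 0.023 and CYP7A1 by 2.61 ± 0.42 at an adjusted p of 0.0335, each at 4 of 4 times. These 3 of 9 members passed an adjusted p of 0.05 as higher in BF and 0 as lower, where 0.319% of all genes were higher and 0.485% lower. CYP27A1 was 0.51 ± 0.12 higher in BF at an adjusted p of 0.0825 and AKR1D1 0.86 ± 0.26 at an adjusted p of 0.129, and neither passed. The call of CYP8B1 was lost (adjusted p of 0.0529) without the 4 h columns. Those of CYP7A1 and CYP7B1 were lost without the 0, 4 or 24 h columns, at adjusted p of 0.117 to 0.211 for CYP7A1 and 0.0784 to 0.157 for CYP7B1, as they were in a fit on these 2 groups alone (0.0752 for both), and that of CYP7A1 was lost without the BA column at 4 h (0.052).

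Against BA, CYP8B1 was higher in BF by 2.85 ± 0.21 at a limma adjusted p of 0.00185, the 1 gene of 8459 (0.0118%) that was called higher, with 0.0% called lower and 401 and 260 genes at an unadjusted p under 0.05. CYP7A1 was higher in BF than in BA by 3.12 ± 0.42 but did not pass, at an adjusted p of 0.109. Without the 4 h columns CYP8B1 did not pass (0.0666), and without the BF column at 12 h CYP7A1 did (0.0287). In BA against Control 0 of 9 members passed the limma test in either direction and 0 had an unadjusted p under 0.05, where 0.0% of genes were called higher and 0.0709% lower. CYP7A1 differed there by -0.51 ± 0.42 at an adjusted p of 0.464.

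**Figure D5:**
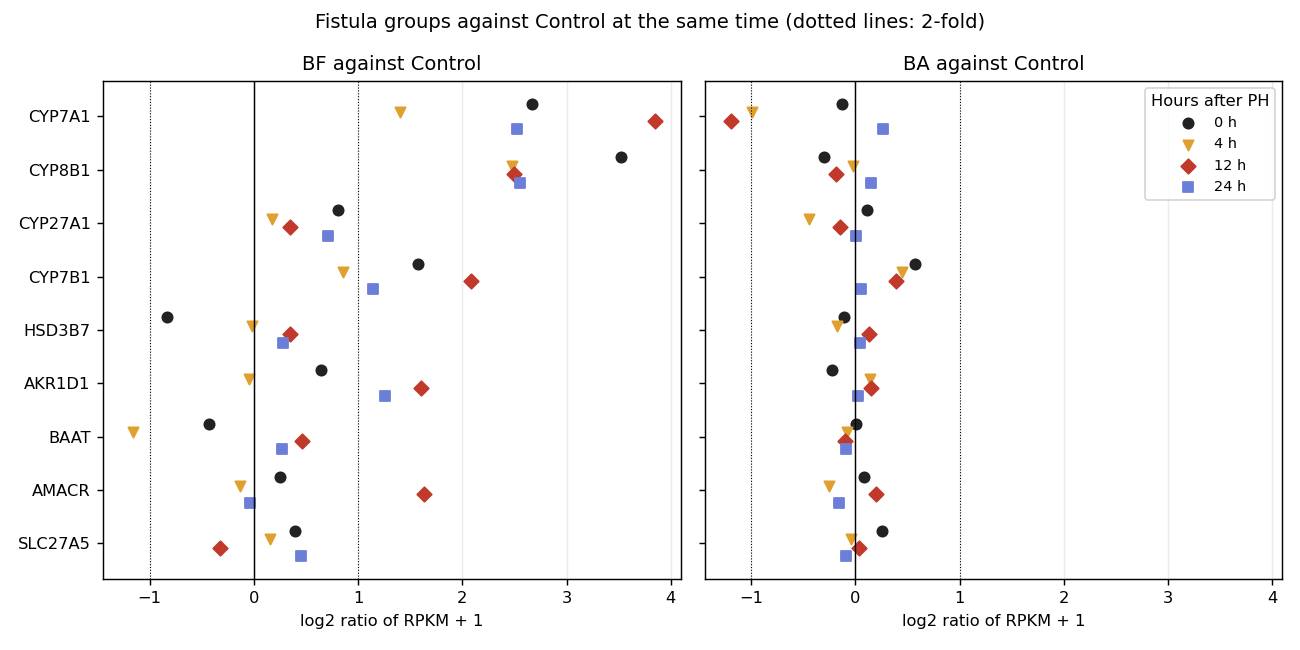
log2 ratio of RPKM + 1 in BF against Control (left) and BA against Control (right) for each enzyme, with 1 marker per time after PH and dotted lines at 2-fold. CYP7A1 and CYP8B1 lie right of the upper line at all 4 times in BF, and in BA only CYP7A1 at 12 h passes the 2-fold line.

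Other genes of the pathway were read from a list of 13, of which 11 were found and 8 averaged 1 RPKM or more. At 12 h 7 of their 24 ratios to 0 h were at least 2-fold lower, at 4 h 3 and at 24 h 0, and 0 were at least 2-fold higher, beside the 6.96%, 8.42% and 2.1% of all gene ratios that were lower at these times. CYP39A1, the 24-hydroxycholesterol 7-alpha-hydroxylase, was lowest at 12 h in Control and BA and at 4 h in BF, as BAAT was, at 73.6, 43.3, 20.4 and 43.3 RPKM in Control, 71.3, 36.9, 21.1 and 41.4 RPKM in BA and 61.0, 25.4, 37.0 and 66.3 RPKM in BF. ABCD3, a peroxisomal transporter of BA precursors, was at 108.6, 114.6, 35.8 and 80.9 RPKM in Control, at 70.4, 31.3, 52.5 and 103.5 RPKM in BA and at 84.2, 64.1, 59.1 and 87.6 RPKM in BF. AKR1C14, a 3-alpha-hydroxysteroid dehydrogenase, was at 886.0, 678.3, 438.3 and 621.4 RPKM in Control, at 545.2, 151.4, 267.9 and 623.6 RPKM in BA and at 742.4, 486.3, 366.6 and 729.0 RPKM in BF. At 4 h BA was below Control 3.66-fold for ABCD3 and 4.48-fold for AKR1C14, the 2 of 32 ratios of the list that were at least 2-fold lower, in the column with the large albumin share, whose part in them was not tested. Of all gene ratios of BA to Control, 2.46% were at least 2-fold lower, and 5.26% of those at 4 h. ACOX2, the branched-chain acyl-CoA oxidase of side chain shortening, stayed within 225.9 to 449.0 RPKM in the 12 columns. SLC27A2, a very long-chain acyl-CoA synthetase, was 2.13-fold higher in BF than in Control at 12 h, the 1 ratio of 32 in this list that passed 2-fold in that comparison. Of all gene ratios of BF to Control, 1.38% were at least 2-fold higher and 2.08% lower. CH25H and CYP46A1, oxysterol-forming hydroxylases, were at or below 1.22 and 0.18 RPKM. ABCB11 was among the 2303 genes listed at 0 in every column. The counting rule is not given, so absent RNA and a gene left uncounted cannot be told apart.

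The genes whose pattern over the 12 columns was most like that of CYP7A1, among 4792 genes averaging 1 RPKM or more whose log2 range was at least 1, were LRP11 (Pearson's r of 0.94), PSEN2 (0.94), IDH1 (0.93), GFRA3 (0.92) and IQCG (0.92). IDH1, the cytosolic NADP isocitrate dehydrogenase, ranged from 113.1 to 426.4 RPKM, and GFRA3 stayed at or below 3.62 RPKM. For CYP8B1 no gene came as near, and genes among the leading 5 were PPP2R5A (0.76), F7 (0.74), APOC4 (0.71) and AKR1B7 (0.71). By Spearman's rho APOC4, an apolipoprotein, ranked 1 for CYP8B1 with 0.83, and F7 had 0.52.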

How the data were processed

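Liver RNA of 3 groups at 4 times was sequenced after poly(A) selection. The submitters' processing notes name CASAVA, Bowtie 0.12.2 and the genome builds rn4 and mm8. The annotation and the counting rule are not given in the sources used here. The authors converted reads to RPKM, computed 2 RPKM files per group and time and deposited their combination with 2 decimals as 1 column of 12. The depth in reads is unknown, so counting precision cannot be given.

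Members and lists were chosen with earlier results of these data known. Of 14692 genes, 1 had no value, and the 8459 averaging 1 RPKM or more formed the background. Ratios were log2 after adding 1 RPKM, which understates changes of low values. Differences at 1 time had no replicates and no test, and those of at least 2-fold were counted. Groups were compared over the 4 times by limma (3.58.1, R 4.3.3; trend of the variance with the mean, Benjamini-Hochberg adjustment over 8459 genes) with group and time as terms, a fit added after seeing the data. Named are the 9 members, examples from the pathway list, and the 5 genes most like CYP7A1 and CYP8B1 by Pearson's r, outside the lists, of which 1 is not reported here. LRH-1, HNF4 and D-box motifs, and examples from the pathway, regulator and clock lists, were chosen after values had been seen. Alternatives were other pseudocounts, 2 rescalings of the columns, fold sizes, no filter, Spearman's rho and leaving out BF at 12 h or, added after seeing the data, BA at 4 h. Computations used Python 3.11.15, numpy 2.4.6, pandas 2.3.3 and matplotlib 3.10.9.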

Additional observations from a re-analysis of the deposited data

Results flagged for a closer look

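CYP8B1 and HSD3B7 moved in opposite directions in different groups, by a log2 ratio to 0 h of at least 0.3 in each. These differences were not tested, since each group has 1 averaged column.

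CYP8B1 was higher than at 0 h in BA and lower in BF. At 4 h the log2 ratio was 0.55 in BA and -0.78 in BF, a difference of 1.33. At 24 h it was 0.78 in BA and -0.64 in BF, a difference of 1.42, and 0.33 in Control, a difference of 0.97 from BF. All of these values kept their sign when the columns were rescaled on the median gene, with 0.12 in Control at 24 h.

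HSD3B7 was lower than at 0 h in Control and BA and higher in BF. At 12 h the log2 ratio was -0.84 in Control, -0.6 in BA and 0.34 in BF, a difference from BF of -1.18 in Control and -0.94 in BA. At 24 h it was -0.48 in Control, -0.32 in BA and 0.64 in BF, a difference from BF of -1.11 in Control and -0.96 in BA. The signs were kept under both rescalings of the columns. The 3 groups differed most in their 0 h columns, to which these ratios refer.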

How the results depend on the processing

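Of the counts of members at least 2-fold apart, those that changed by more than 1.5 times are given here. For 4 h against 0 h the count of 8 was 4 with 3-fold ratios counted and 5 of 18 without BA at 4 h. For 12 h the count of 19 was 12 with 3-fold ratios and 12 of 18 without BF at 12 h. For 24 h the count of 2 was 6 with columns rescaled on the median gene, 15 with 1.5-fold ratios and 0 with 3-fold ratios. For BA against Control the count of 1 was 2 with a pseudocount of 0.1 RPKM or 1.5-fold ratios and 0 with 5 RPKM or 3-fold ratios. For BF against BA the count of 14 was 9 with 3-fold ratios and 9 of 27 without BF at 12 h. Where columns or fold sizes were left out, fewer ratios or larger ones are counted by construction, and otherwise the cause was not tested. The count of 15 for BF against Control stayed between 10 and 20 in the alternatives run.

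Of the 189 ratios of single members, 0 with a 2-fold difference changed sign under another pseudocount or rescaling. Rescaling on the median gene moved 8 of them across 2-fold and rescaling without the 10 most abundant genes 5. No paired analysis was possible because, by replicate number, each group and time has 1 column, so columns were paired by time instead. In that limma fit the count of 3 members called in BF against Control was 1 without the 0 h or the 24 h columns, 0 without the 4 h columns, 1 in a fit on the 2 groups compared and 1 with no filter on low values. For BF against BA the count of 1 was 0 without the 4 h columns and 2 without BF at 12 h. Without BA at 4 h, CYP7A1 in BF against Control had an adjusted p of 0.052. The other alternatives kept these counts within 1.5 times, and that of 0 for BA against Control was 0 in all 12. The unknown depth limits what can be said of CYP7A1 at 4 and 12 h in Control and BA and of NR0B2 at 12 h.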

Other observations

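Genes that regulate BA synthesis were read from a list of 8, of which 7 were found, and 7 of their 21 ratios to 0 h were at least 2-fold lower at 4 h, 5 at 12 h and 1 at 24 h, with 0 higher, beside 8.42%, 6.96% and 2.1% of all gene ratios that were lower. NR0B2 (SHP), a repressor that BA induce through the receptor NR1H4 (FXR), was below its 0 h level at each later time in the 3 groups. In Control and BA it was lowest at 12 h, later than CYP7A1, while in BF its values at 4 and 12 h were close, at 1.45 and 1.21 RPKM. It was at 42.3, 10.6, 0.45 and 30.2 RPKM at 0, 4, 12 and 24 h in Control, at 12.7, 1.85, 0.36 and 5.38 RPKM in BA and at 20.2, 1.45, 1.21 and 10.4 RPKM in BF. NR1H4 itself was at 39.7, 20.7, 19.2 and 28.5 RPKM in Control, 47.4, 11.01, 24.1 and 42.8 RPKM in BA and 52.2, 19.3, 33.0 and 53.2 RPKM in BF. NR5A2 (LRH-1) ranged from 14.7 to 31.4 RPKM and HNF4A from 117.5 to 217.9 RPKM over the 12 columns.

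CYP7A1 is also known as a gene of the daily rhythm, and hours after PH and hour of the day cannot be told apart here. Of 8 clock output genes 6 were found, and 9 of their 18 ratios were at least 2-fold lower at 4 h, 11 at 12 h and 6 at 24 h, with 1 higher at each time. Over all genes 8.42%, 6.96% and 2.1% of ratios were lower and 4.58%, 2.57% and 7.13% higher at these times. DBP, an activator of CYP7A1, was at 77.6, 17.9, 14.6 and 29.3 RPKM in Control, at 37.8, 0.98, 2.13 and 9.92 RPKM in BA and at 29.1, 3.57, 6.98 and 3.1 RPKM in BF. At 24 h DBP was below its 0 h level in the 3 groups, and its part in the course of CYP7A1 was not tested. Clock output genes also differed between groups at the same time. For BF against Control 6 of 24 ratios were at least 2-fold lower and 1 higher. For BA against Control 8 were lower and 0 higher. Of all gene ratios, 2.08% were lower and 1.38% higher in the former, and 2.46% and 1.3% in the latter. The part of the clock in group differences of CYP7A1 was not tested.

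Among the other cell markers, found members of the macrophage list summed to between 129.2 and 233.5 RPKM over the columns, of the cholangiocyte list to between 4.95 and 13.5, of the endothelial list to between 38.6 and 63.3, of the stellate list to between 21.5 and 54.2, of the neutrophil list to between 2.89 and 62.2 and of the red cell list to between 100.9 and 288.1. The neutrophil sum was lowest in Control at 0 h. Nearly all of it was S100A8 and S100A9, with MPO at or below 0.07 RPKM and ELANE at or below 0.03 RPKM. The parts of these cells in the levels of the enzymes were not tested.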
